A study of Mus musculus with 6 samples.

Results

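Immediate early genes are the genes that a cell switches on first, within minutes and without new protein synthesis, when it meets a growth factor, a hormone, mechanical injury or stress. The 10 genes described here were *Fos*, *Fosb*, *Jun*, *Junb*, *Egr1*, *Ier2*, *Atf3*, *Dusp1*, *Nr4a1* and *Zfp36*, found among the 27376 gene names that the array files give to probes. They were measured by 13 of the 41174 probes of the array, and 10 of these 13 probes, from 8 of the 10 genes, were bright enough to be tested among 28606 probes in all. The testes came from male mice of 6-8 weeks on a mixed 129Sv/C57BL/6 background, 3 wt and 3 *Prss55*-/-, in which homologous recombination had disrupted *Prss55*, a testis protease gene. Both genotypes were offspring of heterozygous intercrosses. Total RNA of each mouse was labelled with 1 dye and hybridized to an array of its own.

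Kinases of the MAPK pathways and the cAMP pathway act on factors such as SRF and CREB that already sit at the promoters of immediate early genes, so that transcription starts fast and stops fast. FOS, FOSB, JUN and JUNB are subunits of the AP-1 transcription factor, EGR1, ATF3 and NR4A1 are transcription factors of other families, and DUSP1 and ZFP36 damp the response. Dissection itself is a known trigger of these genes in many tissues, and NR4A1 is known in Leydig cells as a factor induced by luteinizing hormone. RNA of the whole testis was measured, so that fewer cells of a type and less RNA per cell cannot be told apart.

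The promoters of *Nr4a1*, *Junb*, *Fosb* and *Dusp1* are shown because *Nr4a1* and *Junb* shared the variation between mice described further on, *Fosb* was the gene that passed the test between genotypes, and *Dusp1* had the largest difference in the other direction. Each is the 250 bases before the transcription start, 5′ to 3′ on the strand of the gene, from RefSeq on GRCm38.p6, and the capitals mark the core of the cAMP response element, TGACG or CGTCA.
*Nr4a1*, chr15:101266596-101266845, forward strand: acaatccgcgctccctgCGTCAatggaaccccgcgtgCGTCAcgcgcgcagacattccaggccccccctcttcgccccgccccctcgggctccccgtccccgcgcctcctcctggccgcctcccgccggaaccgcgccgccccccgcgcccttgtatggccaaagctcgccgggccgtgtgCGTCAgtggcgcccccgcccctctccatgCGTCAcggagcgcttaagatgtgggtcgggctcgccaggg
*Junb*, chr8:84978749-84978998, reverse strand: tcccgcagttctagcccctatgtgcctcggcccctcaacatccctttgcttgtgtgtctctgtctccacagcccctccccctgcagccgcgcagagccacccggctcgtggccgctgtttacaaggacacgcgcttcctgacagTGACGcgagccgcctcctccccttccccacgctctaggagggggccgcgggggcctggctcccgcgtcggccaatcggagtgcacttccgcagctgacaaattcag
*Fosb*, chr7:19310046-19310295, reverse strand: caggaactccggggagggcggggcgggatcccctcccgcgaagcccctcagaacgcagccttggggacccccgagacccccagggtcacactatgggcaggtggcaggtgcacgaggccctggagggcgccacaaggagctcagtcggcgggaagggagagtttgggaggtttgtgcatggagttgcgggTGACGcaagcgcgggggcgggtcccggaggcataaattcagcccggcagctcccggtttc
*Dusp1*, chr17:26508473-26508722, reverse strand: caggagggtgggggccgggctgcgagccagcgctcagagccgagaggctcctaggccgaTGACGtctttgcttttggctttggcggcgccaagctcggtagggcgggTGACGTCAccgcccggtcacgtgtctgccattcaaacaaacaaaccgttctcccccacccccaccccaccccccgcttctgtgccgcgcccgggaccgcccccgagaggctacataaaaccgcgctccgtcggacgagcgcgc
Of the 10 genes, 8 had a listed promoter and *Egr1* and *Ier2* did not. The core was present on either strand in 6 of these 8 (*Fos*, *Fosb*, *Junb*, *Atf3*, *Nr4a1* and *Dusp1*), against 17.8% of 32851 promoters of the same length. It occurred 4 times before *Nr4a1*, 3 times before *Dusp1* and 2 times before *Fos*, and 3.9% of all promoters held it at least 2 times. The full palindrome TGACGTCA, which contains the core on both strands, was present before *Dusp1* alone among the 8 and in 1.55% of all promoters. A CArG box, the site known for SRF, was found before *Zfp36* (1.47% of all promoters), and the AP-1 site TGANTCA before 0 of the 8 (6.75% of all). These matches describe the letters in these windows.

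The share of spots that the scanner software called well above background was 69.6% to 72.9% on the *Prss55*-/- arrays and 69.5% to 71.4% in wt, with 0 saturated spots. The 3 *Prss55*-/- arrays shared 1 slide, wt replicates 1 and 2 a second slide, and wt replicate 3 lay on another. No slide held both genotypes, so genotype and slide cannot be told apart in any difference below. The targeted gene *Prss55* had a normalized log2 signal of 15.08, 14.95 and 14.93 on the *Prss55*-/- arrays and of 15.87, 15.77 and 16.01 on the wt arrays, with no overlap between the genotypes (p = 0.1 in a two-sided exact permutation test, which cannot give less with 3 mice on each side). Its 1 probe kept 53.6% of the wt signal, and whether it lies in the removed part of the gene is not given in the sources used here. The paper reports that *Prss55* RNA was absent from *Prss55*-/- testis by RT-PCR, and its protein by Western blotting and immunofluorescence. All 10 spermatid markers were well above background, and 6 of 7 epididymal markers were not bright enough to be tested. Summed Leydig cell markers, as linear normalized signal over 7 genes, were 53000, 33800 and 37500 on *Prss55*-/- arrays 1, 2 and 3 and 52300 to 60200 on the wt arrays, and summed macrophage markers (8 genes) 13400 to 17300 and 14400 to 18900. Such sums are carried mostly by their brightest genes, here *Cyp17a1* and *Hsd3b1* for Leydig cells and *Lyz2* for macrophages. Blood markers (4 of 8 tested) summed to 35800 on wt replicate 1 and to 14300 to 23200 on the other arrays. The globin genes *Hbb-b1* and *Hba-a1* were highest on wt replicate 1, while *Alas2* and *Slc4a1* were lowest there. The part of these cells in the results below was not tested.

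Of the 8 tested genes, *Fosb* was lower in *Prss55*-/- testis at a limma adjusted p below 0.05, 0 genes were higher, and 7 did not pass. Over all tested probes 346 passed, which is 1.21%, and 186 of them were lower in *Prss55*-/- testis, which is 0.65%. That count of 346 changed when single arrays, 1 per mouse, were left out, which also lowers the power of the fit. Leaving out 1 *Prss55*-/- array gave 851 (replicate 1), 62 (replicate 2) or 41 (replicate 3), and leaving out 1 wt array gave 69 (replicate 1), 129 (replicate 2) or 393 (replicate 3). At an unadjusted limma p below 0.05, 2 of the 8 genes passed (*Fosb* and *Jun*) against 19.1% of all tested probes. With the thresholds of the methods, which ask for a 2-fold change besides an unadjusted p below 0.05, *Fosb* alone passed, against 0.608% of all tested probes. The groups did not overlap in 3 genes (*Fosb*, *Jun* and *Dusp1*), and in 26.3% of all tested probes. The log2 difference was below 0 in 5 of the 8 genes and in 49.4% of all tested probes. Its median size, sign aside, was 0.16 in the 8 genes and 0.09 over all tested probes, and the median SD within a genotype was 0.16 and 0.092.

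**Figure D1:**
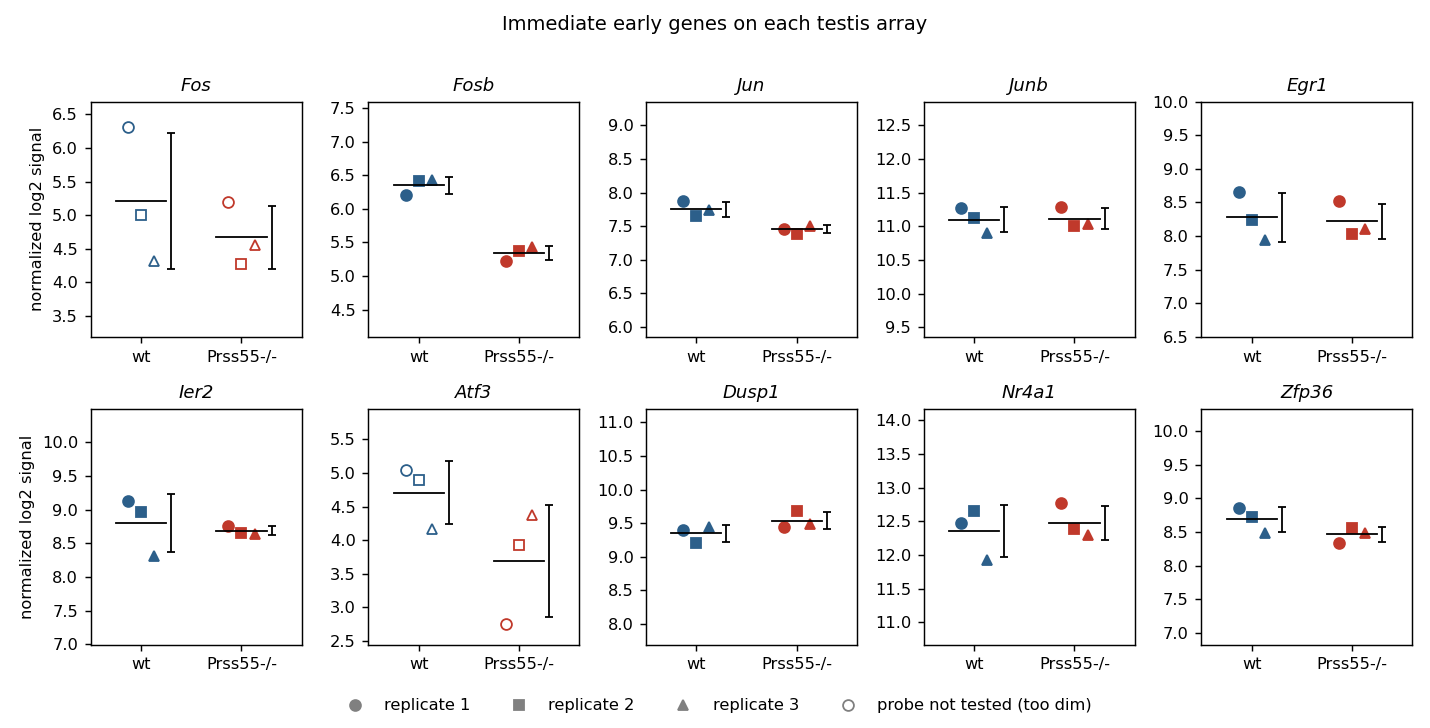
Normalized log2 signal of the 10 immediate early genes in wt (blue) and *Prss55*-/- (red) testis, with a symbol for each array, a line at the mean and an SD bar (n = 3), on axes of equal span. Open symbols are genes too dim to be tested. *Fosb* is the gene whose groups lie farthest apart, at 5.22 to 5.43 against 6.20 to 6.43.

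*Fosb*, whose protein pairs with JUN proteins in AP-1, had 1 probe (mm9, chr7:19888477-19888536). Its log2 signal was 5.22, 5.37 and 5.43 on *Prss55*-/- arrays 1, 2 and 3 and 6.20, 6.42 and 6.43 on wt arrays 1, 2 and 3. All 3 *Prss55*-/- values were lower than all 3 wt values, and the spread within a genotype was about the same on both sides (SD 0.11 and 0.13). *Fosb* fell by 1.01 on the log2 scale (standard error 0.088, 95% interval -1.22 to -0.80, limma adjusted p = 0.0093), to 49.7% of wt. The SD of *Fosb* within a genotype, 0.12, was larger than that of only 17.5% of the 2969 probes of similar brightness. The fit did not adjust its expected spread for brightness, so this interval may be too narrow for so dim a probe. Before normalization the spot read 38.6, 41.1 and 48.8 in *Prss55*-/- and 69.4, 81.6 and 85.4 in wt testis. These are dim signals, since the lowest log2 signal called well above background was 4.79 to 5.26 on these arrays. With normexp background correction, which here added an offset of 50 to every signal, the difference was -0.44 (limma adjusted p = 0.028). Such an offset by itself shrinks the log2 differences of dim signals. The limma adjusted p was 0.054 without *Prss55*-/- replicate 2 and 0.056 without *Prss55*-/- replicate 3, and the log2 difference was -0.90 with scaling to the 75th percentile, under the 2-fold threshold. The call was also lost with the replicate number as a block (limma adjusted p = 0.065) and by the methods' t-test (adjusted p = 0.071).

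*Jun*, the main partner of FOS proteins, was printed as 10 spots per array (mm9, chr4:94715864-94715923), each of them well above background on all 6 arrays. Its log2 signal was 7.46, 7.39 and 7.51 in *Prss55*-/- and 7.87, 7.65 and 7.74 in wt testis. The groups did not overlap, but the difference of -0.30 (standard error 0.072, 95% interval -0.47 to -0.13) did not pass (limma adjusted p = 0.11). Before normalization the groups did overlap, with a median spot signal of 196 on *Prss55*-/- replicate 3, the array with the highest median signal, and of 191 on wt replicate 2.

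*Fos*, the founding gene of its family, also had 10 spots per array (mm9, chr12:86817900-86817959) and was at the edge of detection. The number of its spots well above background was 7, 1 and 3 of 10 on *Prss55*-/- arrays 1, 2 and 3, and 10, 5 and 1 of 10 on wt arrays 1, 2 and 3. Its log2 signal was 5.19, 4.27 and 4.55 in *Prss55*-/- and 6.31, 5.0 and 4.32 in wt testis. The spread between wt mice (SD 1.0) was larger than the gap between the means of the genotypes, 4.67 and 5.21, and the groups overlapped. *Fos* was not tested, because all of its spots were well above background on wt replicate 1 alone.

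**Figure D2:**
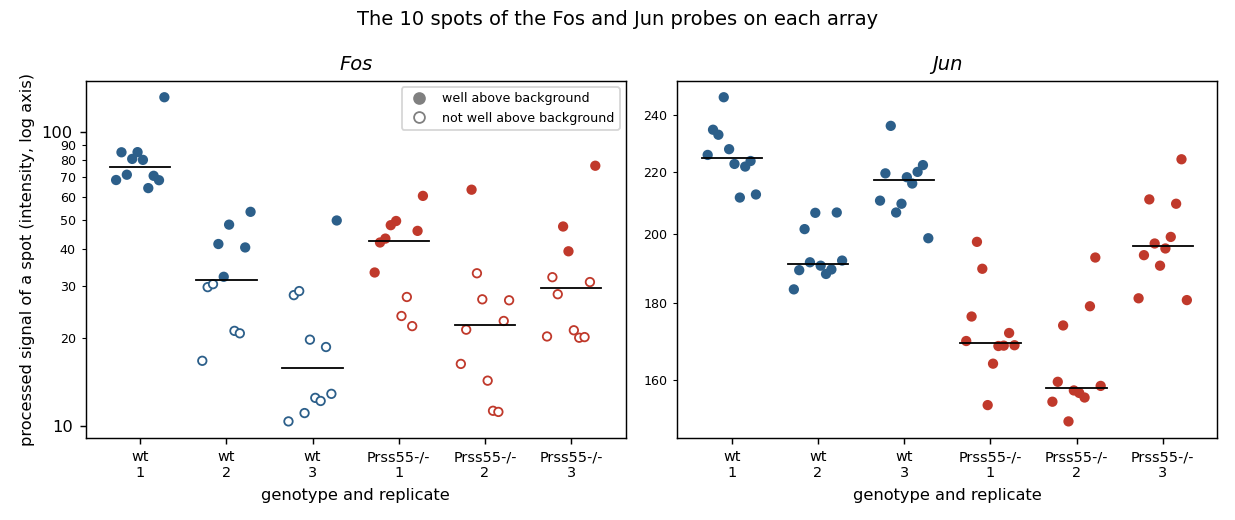
Processed signal of each of the 10 spots of *Fos* and *Jun* on each array, on a log axis. Filled symbols are spots called well above background, and lines are medians over spots. *Fos* runs from a median of 15.7 on wt replicate 3 to 75.9 on wt replicate 1, and *Jun* from 158 to 225.

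*Junb*, an AP-1 subunit that often restrains JUN, was measured by a pair of probes that overlap on the genome (mm9, chr8:87500843-87500940). The brighter one read 11.29, 11.01 and 11.04 in log2 units on the *Prss55*-/- arrays and 11.27, 11.12 and 10.90 on the wt arrays. The genotypes overlapped, with a difference of 0.02 (95% interval -0.27 to 0.31, limma adjusted p = 0.94). The other probe differed by -0.05 (limma adjusted p = 0.82), and on both probes the same array, wt replicate 3, was lowest.

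*Egr1*, a zinc finger factor induced by SRF, had 1 probe (mm9, chr18:35024395-35024454), with a log2 signal of 8.52, 8.03 and 8.11 in *Prss55*-/- and 8.66, 8.24 and 7.94 in wt testis. The first array of each genotype was the highest, and the difference of -0.06 (95% interval -0.58 to 0.45, limma adjusted p = 0.90) was smaller than the spread within a genotype. That spread, an SD of 0.31, was larger than that of 93.7% of all tested probes and of 96.8% of the probes of similar brightness.

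*Nr4a1*, the orphan receptor NUR77, had log2 signals of 12.77, 12.38 and 12.29 in *Prss55*-/- and 12.48, 12.66 and 11.93 in wt testis (mm9, chr15:101105071-101105130). The highest array was *Prss55*-/- replicate 1 and the lowest wt replicate 3, so that the genotypes overlapped. The difference was 0.13 (95% interval -0.40 to 0.65, limma adjusted p = 0.78), and the SD within a genotype, 0.32, exceeded that of 98.6% of the probes of similar brightness. Summed Leydig cell markers were 53000, 33800 and 37500 on *Prss55*-/- arrays 1, 2 and 3 and 59900, 52300 and 60200 on wt arrays 1, 2 and 3, and their part in the *Nr4a1* values was not tested.

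*Atf3*, a factor induced in the stress response, was not well above background on any array (mm9, chr1:192994547-192994606). Its measured log2 values were 2.76, 3.93 and 4.38 in *Prss55*-/- and 5.05, 4.90 and 4.17 in wt testis, and no fold change is given for it.

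*Ier2*, a small nuclear protein of the early response, had a pair of probes (mm9, chr8:87185211-87185245 and chr8:87183623-87183681). The log2 signal of the brighter one was 8.76, 8.66 and 8.64 in *Prss55*-/- and 9.13, 8.97 and 8.31 in wt testis. The wt mice spread over 0.82 log2 units and the *Prss55*-/- mice over 0.114, so that the wt group enclosed the other. The difference was -0.12 (95% interval -0.62 to 0.39, limma adjusted p = 0.79). The dimmer probe, designed on another transcript, differed by -0.27 (limma adjusted p = 0.44) and ran differently among the *Prss55*-/- arrays, at 6.21, 6.62 and 6.88.

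*Dusp1*, the phosphatase that switches MAPK signalling off again, was the tested gene with the largest log2 difference above 0. Its log2 signal was 9.45, 9.68 and 9.49 in *Prss55*-/- and 9.40, 9.21 and 9.45 in wt testis (mm9, chr17:26642526-26642536). The groups were apart only by a margin that vanishes at this rounding, and the difference of 0.19 (95% interval -0.04 to 0.41) did not pass (limma adjusted p = 0.33).

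*Zfp36*, which encodes tristetraprolin, a protein that binds AU-rich messages and marks them for decay, had log2 signals of 8.34, 8.56 and 8.49 in *Prss55*-/- and 8.86, 8.72 and 8.49 in wt testis (mm9, chr7:29162132-29162191). The lowest wt array lay within the *Prss55*-/- values, and the difference was -0.22 (95% interval -0.49 to 0.04, limma adjusted p = 0.33). Its other probe stayed too dim on all 6 arrays to be tested.

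**Figure D3:**
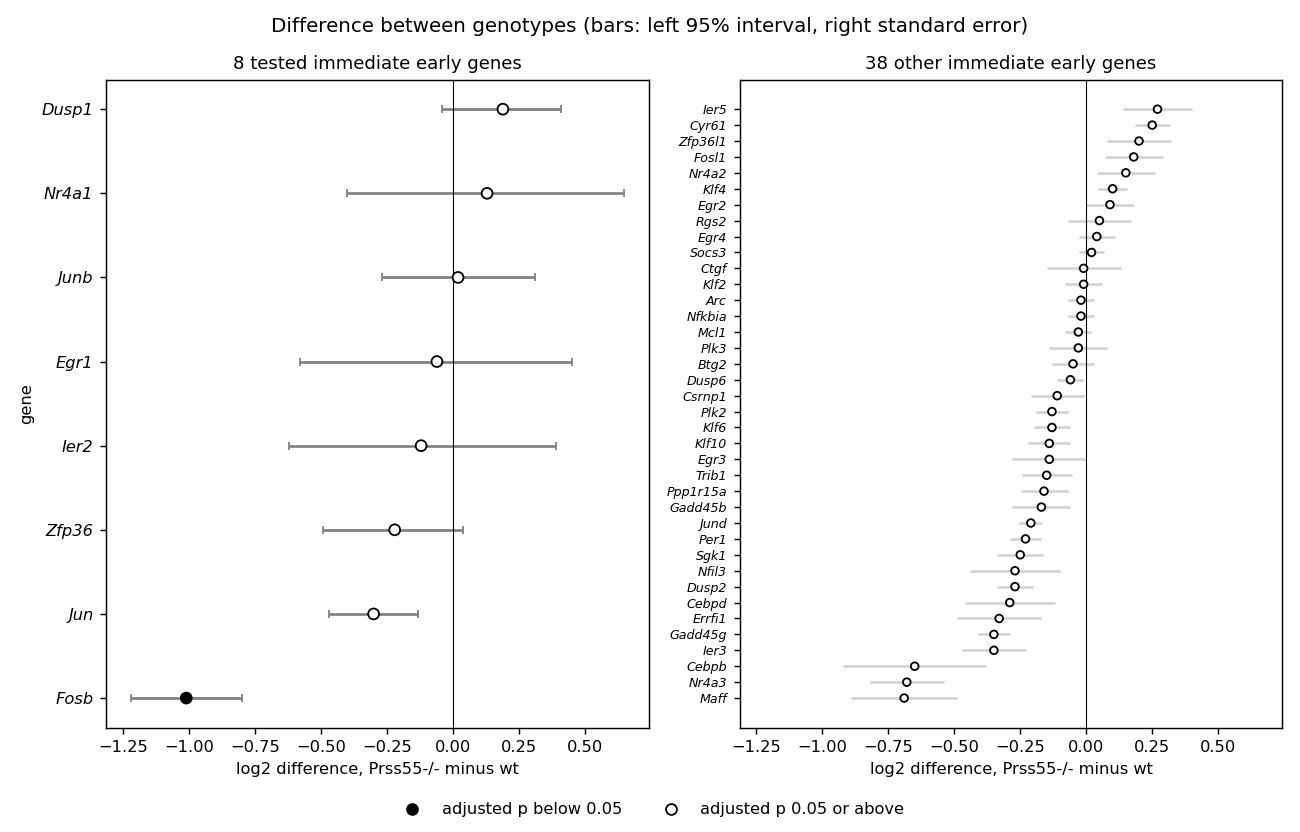
Log2 difference, *Prss55*-/- minus wt, of the 8 tested immediate early genes with its 95% interval (left) and of 38 other immediate early genes with its standard error (right). *Fosb* at -1.01 is the filled point, and all other points are open because their limma adjusted p was 0.05 or above.

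The arrays of 1 genotype differed from each other along a line that several of these genes shared. Of the 8 tested genes, wt replicate 1 was the highest wt array in 5 (*Jun*, *Junb*, *Egr1*, *Ier2* and *Zfp36*), against 29.9% of all tested probes. In turn, wt replicate 3 was the lowest wt array in 5 (*Junb*, *Egr1*, *Ier2*, *Nr4a1* and *Zfp36*), against 35.7% of all tested probes. Among the *Prss55*-/- arrays, replicate 1 was the highest in 4 (*Junb*, *Egr1*, *Ier2* and *Nr4a1*), against 35.8% of all tested probes, and the lowest in 3 (*Fosb*, *Dusp1* and *Zfp36*), against 40.5%. The deviation from the genotype mean of wt replicate 3 was -0.49 in *Ier2*, -0.42 in *Nr4a1*, -0.34 in *Egr1* and -0.20 in both *Junb* and *Zfp36*, while the median over all tested probes was 0.0 there. On *Prss55*-/- replicate 1 the deviation was 0.30 in *Egr1*, 0.29 in *Nr4a1* and 0.18 in *Junb*.

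The untested *Fos* probe followed the same order as *Egr1* at its upper end, with wt replicate 1 highest, *Prss55*-/- replicate 1 next and wt replicate 2 after it. *Fosb* did not share the line, since replicate 1 was its lowest array in each genotype, with deviations of -0.15 in wt and -0.12 in *Prss55*-/- testis. *Dusp1* did not follow it either, and its wt replicate 3 was the highest wt array. wt replicate 3 was the only array of this series on its slide, so that mouse, slide and handling cannot be told apart there. On wt replicate 1, which shared a slide with wt replicate 2, the globin genes were highest, but *Alas2* and *Slc4a1* were lowest. The part of slide, handling or blood in these values was not tested.

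**Figure D4:**
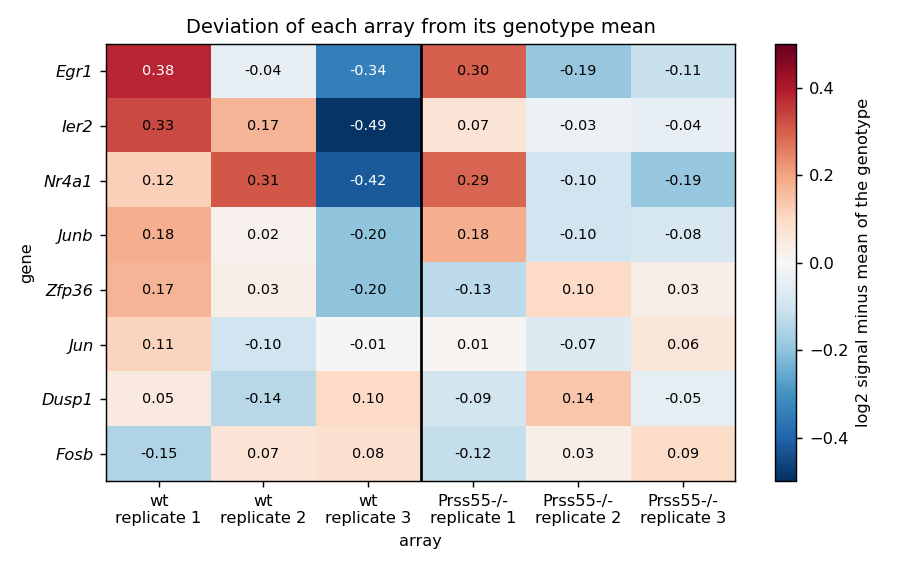
Deviation of each array from the mean of its genotype, in log2 units, for the 8 tested genes, with red above and blue below the mean. *Egr1*, *Ier2*, *Nr4a1* and *Junb* are all above the mean on wt replicate 1 and *Prss55*-/- replicate 1 and below it on wt replicate 3, and *Fosb* runs the other way.

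Other genes of the immediate early response were read from a list of 45, of which 38 were tested. By limma with adjustment 0 of the 38 passed, 9 had an unadjusted limma p below 0.05 (19.1% of all tested probes did), and the methods' t-test gave 0 after adjustment and 7 before. The log2 difference was below 0 in 28 of the 38, against 49.4% of all tested probes, with a median of -0.12 against 0.0019. The groups did not overlap in 10 of the 38, which is the same share, 26.3%, as over all tested probes. *Maff*, a small MAF factor, had the largest difference, with log2 signals of 7.50, 7.03 and 6.73 in *Prss55*-/- and 7.94, 7.76 and 7.65 in wt testis (-0.69, limma adjusted p = 0.15). *Nr4a3*, a close relative of *Nr4a1*, read 6.97, 6.69 and 6.62 against 7.46, 7.21 and 7.65 (-0.68, limma adjusted p = 0.086). Without *Prss55*-/- replicate 1, when the count over all probes rose from 346 to 851, 3 genes of the list passed with limma, *Cebpb* at -0.98 (adjusted p = 0.0042), *Maff* at -0.91 (adjusted p = 0.036) and *Gadd45g* at -0.39 (adjusted p = 0.035). Without wt replicate 3, *Ier3* alone passed at -0.48 (limma adjusted p = 0.038).

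The line between mice appeared in part of this list too. Of its 38 tested genes, wt replicate 1 was the highest wt array in 20 (29.9% of all tested probes) and the lowest in 2 (30.5%). For wt replicate 3 these counts were 10 (36.9%) and 24 (35.7%). *Prss55*-/- replicate 1 was the highest array of its genotype in 18 (35.8%) and the lowest in 13 (40.5%). The within-genotype deviations of 13 of the 38 (34.2%) correlated above 0.7 with the mean deviation of the 8 genes over the 6 arrays, as those of 10.6% of all tested probes did. That mean deviation was largest on wt replicates 1 (0.15) and 3 (-0.19). Over the 4 arrays without them, the shares lay closer together, at 10 of the 38 (26.3%) and 18.2% of all tested probes. *Errfi1*, a feedback inhibitor of the EGF receptor (0.97), and *Mcl1*, a survival factor of the BCL2 family (0.95), were the highest in the list. *Socs3* (-0.75) and *Egr3* (-0.69) were the lowest and ran the other way.

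Upstream of these genes, 19 of 20 listed kinases and factors were tested and 0 passed with limma (2 at an unadjusted p below 0.05, and 0 by the methods' t-test after adjustment). The largest differences were 0.22 in *Rps6ka5*, the kinase MSK1 that acts on CREB (limma adjusted p = 0.15), and -0.21 in *Elk3*, a partner of SRF (limma adjusted p = 0.40). Of 12 heat shock genes, 0 passed with limma (1 at an unadjusted p below 0.05, and 0 by the methods' t-test after adjustment). *Bag3*, a cochaperone of HSP70, was at -0.28 (limma adjusted p = 0.075). *Hmox1*, the haem-degrading enzyme, was at 9.34 on *Prss55*-/- replicate 1 and between 10.49 and 10.65 on all other arrays, so that 1 mouse carried its difference of -0.38 (limma adjusted p = 0.58).

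All 11 genes listed for the integrated stress response had a log2 difference below 0, against 49.4% of all tested probes, with a median of -0.13. With limma 0 of the 11 passed (3 at an unadjusted p below 0.05, against 19.1% of all tested probes, and 0 by the methods' t-test after adjustment). Some lists of cell type markers lay below 0 as well, with 8 of 8 macrophage genes (median -0.13), 8 of 9 peritubular and vascular genes (median -0.09) and 6 of 7 Leydig cell genes (median -0.56). In other lists 5 of 8 Sertoli cell genes (median -0.02), 3 of 6 spermatogonial genes (0.06) and 3 of 8 spermatocyte genes (0.04) were below 0. The same held for 5 of 10 spermatid genes (median 0.01) and 2 of 4 blood genes (0.0). The part of these cells in the stress response values was not tested. *Ddit4*, an inhibitor of mTORC1 that stress and glucocorticoids induce, read 12.34, 12.58 and 12.23 in *Prss55*-/- and 13.31, 12.99 and 12.09 in wt testis. Its difference of -0.41 was within the spread between wt mice (SD 0.63, limma adjusted p = 0.51), and wt replicate 3 was again the lowest array. *Vldlr*, a lipoprotein receptor induced by ATF4, was at -0.27 (limma adjusted p = 0.20).

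Genes close to 7 of the 8 on the genome were counted within 1 Mb on each side. Around *Fosb* 0 of 50 other tested genes passed at a limma adjusted p below 0.05, around *Jun* 0 of 10, around *Dusp1* 0 of 52 and around *Nr4a1* 0 of 41. Around *Junb* 1 of 56 passed (*Nacc1*), around *Egr1* 1 of 34 (*Pkd2l2*) and around *Zfp36* 1 of 75, a transcript without a symbol, where 1.21% of all tested probes passed.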

How the data were processed

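Single-dye whole genome arrays, 1 per mouse, measured the testis RNA of 3 wt and 3 *Prss55*-/- mice. The authors deposited the scanner output (Agilent Feature Extraction 10.7, per the submitters' notes), whose processed signal is an intensity already corrected for background, and a matrix of quantile-normalized log2 values, which the authors made with GeneSpring and which was used as an alternative here. Probe positions are the files' own, on mm9 per the file headers, and exon or intron annotation was not analysed here. Depth has no counterpart on arrays, and the number of arrays limits the precision.

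Control and outlier spots were left out, signals under 1 set to 1, log2 values quantile-normalized and spots of a probe averaged. A probe was tested if all its spots were well above background on every array of at least 1 genotype. The genotypes were compared by the two-sided moderated test of limma (version 3.58.1, R 4.3.3), and p-values were adjusted over 28606 probes by the Benjamini-Hochberg method, with 0.05 as the threshold. A gene was read from its probe with the highest mean signal. Nothing in the labels says how dissections were spread over time. The p-values rest on the spread between arrays, 1 per mouse, which mixes mouse and array, and they do not separate slide from genotype. The fit was tested on simulated data. These were independent normal values without slide effects, so that test covers neither slide nor variation shared between genes.

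Every one of the 10 genes is named, with *Prss55*, and of each further list the genes past the threshold or else the 2 of largest difference. Genes named from left-out arrays or as neighbours, *Errfi1*, *Mcl1*, *Socs3*, *Egr3*, *Chac1*, *Lyz2*, *Cyp17a1* and *Hsd3b1* were chosen after their values were seen. The members, lists and tests were chosen with earlier results of these data known. Lists for Sertoli, peritubular and vascular cells, spermatogonia and spermatocytes gave 0 limma adjusted calls, as did those for Leydig cells, macrophages, blood, epididymis and spermatids. Alternatives covered scaling, background, filter, blocks, left-out arrays and the methods' t-test. Python 3.11.15 (matplotlib 3.10.9, scipy 1.17.1, pandas 2.3.3, numpy 2.4.6) served for tables and plots. Promoter letters are from RefSeq GRCm38.p6, and no coordinates were carried between builds. The neighbours of *Ier2* are not reported here.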

Additional observations from a re-analysis of the deposited data

How the results depend on the processing

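*Fosb* kept a log2 difference below 0 under all 14 alternatives, from -1.07 to -0.44, with a limma adjusted p between 0.0071 and 0.065 and 0.071 by the methods' t-test after adjustment. Of the 8 tested genes, 1 passed the adjusted threshold, and this count was 0 with the replicate block and by the methods' t-test, and 0 to 1 with 1 array left out. At the thresholds of the methods it was 0 with 75th percentile scaling and with normexp, and 0 to 1 with 1 array left out. The count of all probes past the adjusted threshold, 346, was 140 without a filter on dim probes, 13 with the replicate block, 87 by the methods' t-test and 41 to 851 with 1 array left out. The count at the thresholds of the methods, 174, was 69 with normexp, 370 without a filter, 94 with probes well above background on all 6 arrays and 141 to 250 with 1 array left out. Of the other immediate early genes 0 passed under each setting, except for 0 to 3 with 1 array left out. The deposited matrix and the slide as a random block (correlation 0.0359) moved no call on the 8 genes. Since no slide held both genotypes, the slide block cannot separate slide from genotype. The normexp setting added an offset of 50, which by itself shrinks the log2 differences of dim signals. The share of this offset and the causes of the other changes were not tested.

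Signs turned only in genes whose difference was small. With 1 array left out in turn, the range was -0.08 to 0.11 in *Junb*, -0.23 to 0.13 in *Egr1*, -0.36 to 0.05 in *Ier2* and -0.09 to 0.28 in *Nr4a1*. *Junb* was at -0.01 with normexp, -0.07 without *Prss55*-/- replicate 1 and -0.08 without wt replicate 3. *Egr1* was at 0.03 without *Prss55*-/- replicate 2 and 0.13 without wt replicate 1, *Ier2* at 0.05 without wt replicate 1, and *Nr4a1* at -0.02 without *Prss55*-/- replicate 1 and -0.09 without wt replicate 3. *Jun*, *Dusp1* and *Zfp36* kept their direction and stayed above the threshold under all 14 alternatives.

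The labels number the mice 1 to 3 in each genotype, and the deviations of same-numbered arrays correlated at -0.0543, -0.0227 and -0.112. These values showed no pairing by number, but they cannot tell whether mice were paired. A figure legend of the paper speaks of 3 pairs of mice, without saying how they were formed. With the replicate block, *Fosb* stayed at -1.01 with a limma adjusted p of 0.065.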

Other observations

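Outside the immediate early genes, the named genes whose within-genotype deviations over the 6 arrays were most like the mean deviation of the 8 tested genes were *Tead1*, a factor of the Hippo pathway, at a Pearson correlation of 0.999, *Trappc4* (0.998), *Ppip5k1* (0.998), *Gm10165* (0.997) and *Kctd4* (0.996). They are the top of 28604 probes ranked on this measure, over arrays that share slides. *Tead1* also had a wide spread, with a deviation of 0.41 on wt replicate 1 and -0.54 on wt replicate 3, while *Trappc4* moved by 0.03 and -0.04. Between the genotypes *Tead1* differed by 0.42 (limma adjusted p = 0.39), a difference that did not pass.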
